A study of Mus musculus with 281 samples.

Results

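The genes described here are 33 enzymes, regulators and transporters of cholesterol and fatty acid synthesis, taken by name and read from the deposited table of transcript levels in single mouse bone marrow cells, which holds 43280 gene symbols. They comprise 17 enzymes of sterol synthesis, 4 regulators of that pathway, 2 cholesterol exporters and 10 enzymes of fatty acid synthesis, elongation and desaturation. All 33 symbols were found, each at 1 position of the mouse genome build GRCm38. Levels are in TPM, a share of a cell's transcripts corrected for their length and scaled to a fixed total, and a gene counted as detected from 1 TPM upwards.

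The study examined how granulocyte-monocyte progenitors (GMPs), the marrow cells that give rise to neutrophils and monocytes, differ from one another. It sequenced single untreated cells of C57BL/6 mice, an inbred strain, by SMART-seq2, a full-length method, and gave each cell a cell type label. CMP cells (47) were lineage-negative, Sca-1-negative, Kit-positive and CD34-positive with low CD16/32, a pair of Fc receptors. Ly6C-GMP cells (45) and Ly6C+GMP cells (95 in 1 stretch of sample titles and 10 in another) shared that gate but had high CD16/32 and lacked or carried Ly6C. Of the 22 proneu cells, 21 have the Ly6C+GMP gate in the labels and 1 has none, and what set them apart from Ly6C+GMP cells is not given there. The preNeu cells (31) were Gr1-positive, CD11b-positive, Kit-positive and CXCR4-positive without CD115 or SiglecF. The tpMo cells (31) were CD115-positive, CXCR4-positive and Ly6C-positive without Kit. No age, sex or animal is named, so each label counts as 1 sample. Values after ± are standard deviations (SD) over cells, no p-value is given, and intervals on shares of cells are exact Clopper-Pearson 95% intervals that cover counting error only. Beside a count of 0, the share it allows is instead 3 cells of the total, which is narrower than the upper exact limit.

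Cholesterol is built from acetyl-CoA through mevalonate, isoprenoid units and squalene, and then through a series of sterol intermediates. When sterols are scarce, the escort protein Scap carries SREBP transcription factors to the Golgi for cleavage, after which they turn on most of these enzymes, and Insig proteins hold the complex back when sterols are plentiful. Fatty acid synthesis draws on cytosolic acetyl-CoA made from citrate and yields palmitate, which elongases and desaturases then modify. Dividing progenitors need both products for membranes, and maturing neutrophils and monocytes also use lipids for granules, signalling and storage.

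The number of genes detected per cell differed between labels. Its part in the differences was not tested, and a few members are also given for cells with like numbers of genes. The median cell had 2373 genes among preNeu, 3082 among tpMo and 3489 among CMP cells, and 4204 among proneu, 4514 among Ly6C-GMP and 4829 among Ly6C+GMP cells. In preNeu cells the 20 most abundant genes took a median of 47.1% of all TPM, against 14.2 to 22.4% in the other labels. Marker genes were checked against the labels: 6 of 6 secondary granule genes were detected in at least 50% of preNeu cells and 6 of 6 monocyte genes in at least 50% of tpMo cells. Both lists also reached 6 of 6 in Ly6C+GMP cells, and the granule genes did so in proneu and tpMo cells, so detection alone does not separate these labels. The granule genes summed to at least 203981 TPM in each preNeu cell and to at most 116347 in any other cell. The monocyte genes summed to medians of 13344 TPM in tpMo and 9723 in Ly6C+GMP cells, with overlapping ranges. Of the progenitor markers, no tpMo cell reached 1 TPM of Kit, but Cd48 was detected in 29, Cd34 in 18, Myb in 16 and Flt3 in 2 of the 31. Kit was detected in 6 of 31 preNeu cells, although their gate is Kit-positive. The titles fall into 4 stretches, called runs A, B, C and H here, whose meaning the labels do not state. No run holds both Ly6C+GMP and Ly6C-GMP cells, so for that pair the run cannot be told apart from the label.

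Promoters are shown for 4 members on which the results turn: Hmgcs1, which opens the mevalonate branch, Nsdhl and Fasn, which were not detected in preNeu cells, and Elovl5, which was highest in proneu cells. Each is the 250 bases before the RefSeq start site in GRCm38.p6, written 5′ to 3′ on the gene's own strand. Capitals mark TCACNCCAC, the core of an SREBP site, CCAAT, the NF-Y box, and GGGCGG, the GC box, each searched on both strands.
Hmgcs1, chr13:119690101-119690350, plus strand: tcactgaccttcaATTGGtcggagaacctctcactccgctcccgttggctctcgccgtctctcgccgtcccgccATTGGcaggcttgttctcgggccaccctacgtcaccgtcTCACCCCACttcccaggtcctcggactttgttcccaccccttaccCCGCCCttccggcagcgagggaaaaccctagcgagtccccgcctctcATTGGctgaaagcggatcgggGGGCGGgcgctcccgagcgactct
Nsdhl, chrX:72918271-72918520, plus strand: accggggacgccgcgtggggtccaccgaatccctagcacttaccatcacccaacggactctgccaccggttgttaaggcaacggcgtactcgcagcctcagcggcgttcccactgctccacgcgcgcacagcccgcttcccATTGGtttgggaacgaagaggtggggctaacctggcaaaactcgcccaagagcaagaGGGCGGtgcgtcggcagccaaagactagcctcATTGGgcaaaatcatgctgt
Fasn, chr11:120824548-120824797, minus strand: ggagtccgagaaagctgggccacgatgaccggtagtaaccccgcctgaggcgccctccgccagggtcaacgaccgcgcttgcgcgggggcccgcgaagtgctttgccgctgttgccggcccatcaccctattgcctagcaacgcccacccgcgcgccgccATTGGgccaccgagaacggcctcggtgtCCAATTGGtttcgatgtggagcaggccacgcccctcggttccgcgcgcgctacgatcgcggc
Elovl5, chr9:77917115-77917364, plus strand: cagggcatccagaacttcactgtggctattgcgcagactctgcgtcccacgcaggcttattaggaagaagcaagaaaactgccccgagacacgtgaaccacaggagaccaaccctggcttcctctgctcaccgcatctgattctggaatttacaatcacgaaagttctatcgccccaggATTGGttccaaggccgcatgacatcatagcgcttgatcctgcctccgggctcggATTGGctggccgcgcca
In the Hmgcs1 sequence the SREBP core begins 137 bases before the start site, with CCAAT boxes read in reverse at 237, 176 and 45 bases before it. In the Fasn sequence 2 CCAAT boxes overlap, at 62 and 59 bases before the start site.

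Counted in the longer window that ends 50 bases after the start site, the SREBP core was in 1 of 33 windows of 26 members, that of Hmgcs1, and in 1.24% of all 32851 windows of this length. CCAAT was in windows of 20 of the 26 members (21 of 33 windows) and in 37.4% of all windows. GGGCGG was in windows of 21 of the 26 members (25 of 33 windows) and in 35.7% of all windows. The matches are letters in a window and not measured sites. Fdps, Fdft1, Sqle, Abcg1, Scd1, Scd2 and Fads1 had no window in the table used.

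**Figure D1:**
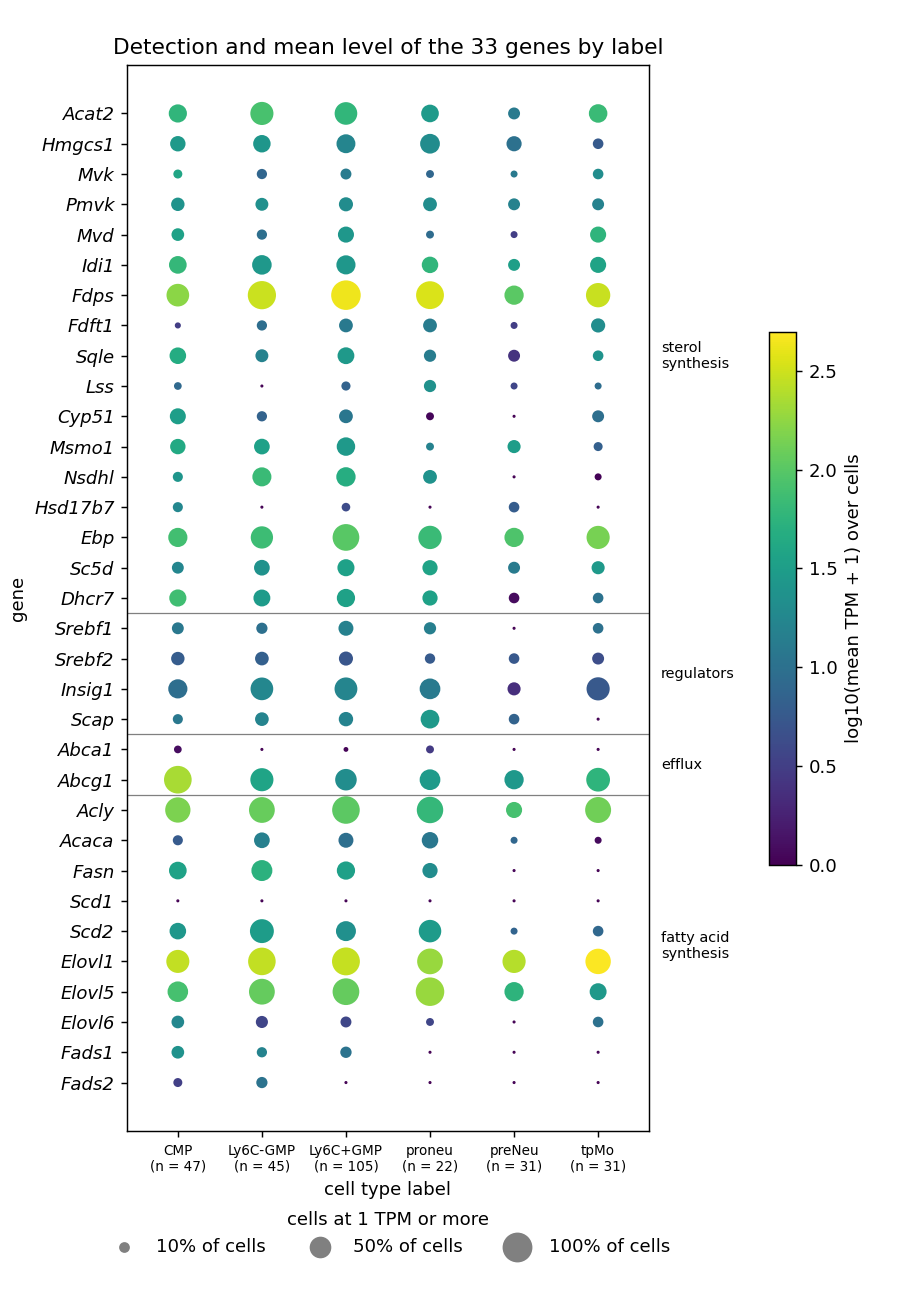
Detection and mean level of the 33 members (rows, by role) in the 6 labels (columns, with cell numbers). Dot area follows the percentage of cells at 1 TPM or more and colour the log10 of mean TPM plus 1. Fdps, Ebp, Acly, Elovl1 and Elovl5 have the largest dots, the preNeu column has the smallest, and Scd1 is at 0 throughout.

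Of the sterol enzymes, Fdps had the highest mean TPM in every label. Fdps (chr3:89093588-89101959, minus strand) makes farnesyl diphosphate, the branch point to sterols, ubiquinone and protein prenylation. It was detected in 55.3% of CMP cells (95% limits 40.1 and 69.8%), 88.9% of Ly6C-GMP cells (95% limits 75.9 and 96.3%) and 98.1% of Ly6C+GMP cells (95% limits 93.3 and 99.8%). It was found in 19 of 22 (86.4%) proneu, 20 of 31 (64.5%) tpMo and 12 of 31 (38.7%) preNeu cells. Over the cells of a label its lowest value was 0 throughout, as for every member in every label. The median Ly6C+GMP cell had 383 TPM, the median proneu cell 285 and the median Ly6C-GMP cell 264, and the medians of the tpMo, CMP and preNeu labels were 133, 1.76 and 0 TPM. The highest cells of the labels, 864 to 1590.3 TPM, were within a factor of 2 of each other, so the labels overlapped at the top. Over the cells that held Fdps, the median was 392 TPM in Ly6C+GMP, 379 in proneu and 366 in tpMo cells. It was 278 in Ly6C-GMP, 270 in CMP and 130 in preNeu cells. The labels thus differed in how many cells held the transcript. Its level in those cells was close between CMP and Ly6C-GMP cells, and was lowest in the 12 preNeu cells that held it. On the scale of mean log2(TPM + 1), Fdps was higher by 3.10 in Ly6C-GMP than in CMP cells and by a further 1.66 in Ly6C+GMP cells. It differed by -4.60 between preNeu and proneu cells and by -3.52 between tpMo and Ly6C+GMP cells.

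**Figure D2:**
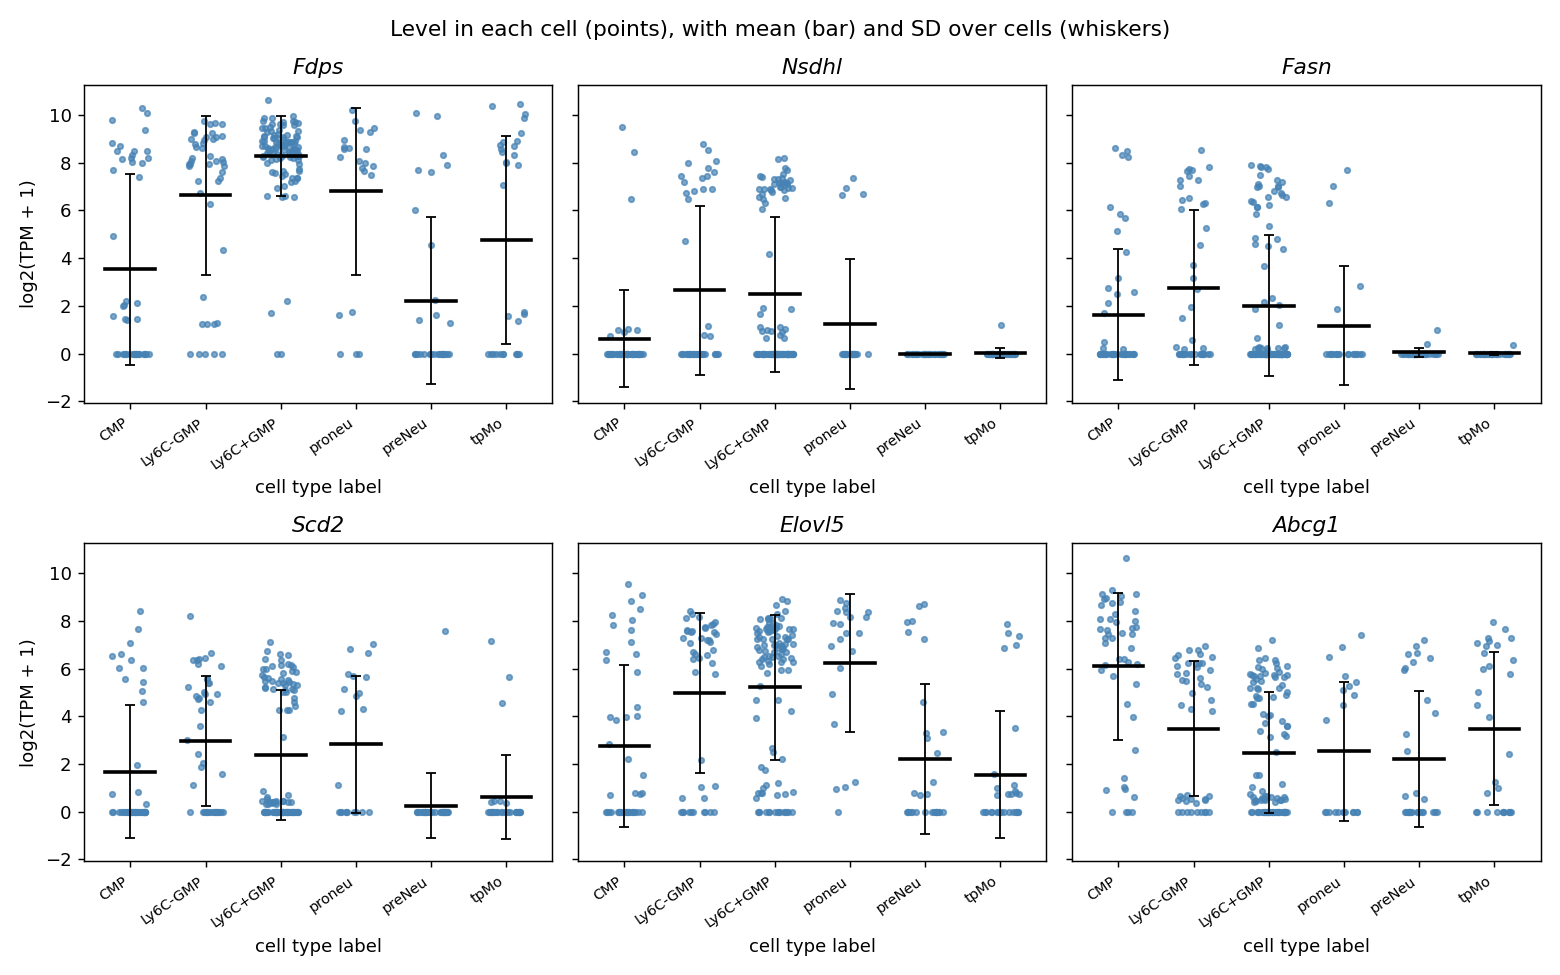
Level of 6 members in each cell, as log2(TPM + 1), by label, with points for cells, a bar for the mean and whiskers for the SD over cells. Fdps fills most GMP cells and ranges from 0 over low to high values in preNeu and tpMo cells. Nsdhl and Fasn are at or near 0 in all preNeu and tpMo cells, Elovl5 is highest in proneu and Abcg1 in CMP cells.

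The first steps to isoprenoid units were detected in fewer cells. Acat2, which condenses 2 acetyl-CoA molecules, was found in 57.8% of Ly6C-GMP cells (95% limits 42.2 and 72.3%) and 55.2% of Ly6C+GMP cells (95% limits 45.2 and 65%), against 11 of 31 (35.5%) tpMo, 16 of 47 (34%) CMP, 7 of 22 (31.8%) proneu and 4 of 31 (12.9%) preNeu cells. Hmgcs1, the HMG-CoA synthase whose promoter is printed above, was found in 37.1% of Ly6C+GMP and 9 of 22 (40.9%) proneu cells but in 3 of 31 (9.68%) tpMo cells, and its mean stayed at or below 27.2 TPM. Mvd, the decarboxylase that ends the mevalonate part, was found in 8 of 31 (25.8%) tpMo cells, in 25.7% of Ly6C+GMP cells and in 1 cell each of the proneu and preNeu labels. Idi1, the isomerase of isoprenoid units, was detected in 12.9% of preNeu to 40% of Ly6C-GMP cells. The kinases Mvk and Pmvk were detected in at most 10.5% and 19% of the cells of any label and stayed within 1 log2 unit in all 6 comparisons.

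Beyond farnesyl diphosphate, Ebp, the sterol isomerase, was the most widely detected enzyme. It was found in 79% of Ly6C+GMP cells (95% limits 70 and 86.4%) and in 13 of 22 (59.1%) proneu, 18 of 31 (58.1%) tpMo, 24 of 45 (53.3%) Ly6C-GMP, 12 of 31 (38.7%) preNeu and 18 of 47 (38.3%) CMP cells. The mean of Ebp was 138 ± 155 TPM in tpMo and 99.9 ± 85.9 TPM in Ly6C+GMP cells, ranges that overlapped widely. Sqle, the squalene epoxidase, was found in 27.7% of CMP cells, in 28.6% of Ly6C+GMP cells and in 9.68% to 15.6% of the other labels. Cyp51, the lanosterol demethylase, was detected most often in CMP cells (12 of 47), and at 0 TPM in all 31 preNeu cells. Msmo1, the methyl sterol oxidase, was detected in 35.2% of Ly6C+GMP cells and in 1 of 22 proneu and 2 of 31 tpMo cells. Dhcr7, which makes cholesterol from its last precursor, was detected in 34.3% of Ly6C+GMP cells, where the highest cell had 290.4 TPM, and in 3 of 31 preNeu cells, none above 3.07 TPM. Fdft1, Lss, Hsd17b7 and Sc5d were detected in 0 to 29.5% of the cells of any label.

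Nsdhl (chrX:72918557-72958514, plus strand), a sterol dehydrogenase that removes a carbon from lanosterol derivatives, was split between labels. It was detected in 37.8% of Ly6C-GMP cells (95% limits 23.8 and 53.5%) and 39% of Ly6C+GMP cells (95% limits 29.7 and 49.1%). It was found in 4 of 22 (18.2%) proneu and 4 of 47 (8.51%) CMP cells. It was at 0 TPM in all 31 preNeu cells, which allows a share of up to 9.68%, and in all but 1 tpMo cell, which had 1.26 TPM. In run A, 40 of 95 Ly6C+GMP cells held Nsdhl. Run C, the run of the preNeu, tpMo and 21 proneu cells, had 1 of 10. These are too few cells to tell whether the share differed between runs. Within run C the difference between proneu and Ly6C+GMP cells was 0.66, against -1.22 over all cells, and that between tpMo and Ly6C+GMP cells was -0.62, against -2.44. The part of the run in these differences was not tested.

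Among the regulators, Insig1, which retains the SREBP complex in the endoplasmic reticulum, was found in 56.2% of Ly6C+GMP, 58.1% of tpMo and 55.6% of Ly6C-GMP cells, but in 5 of 31 (16.1%) preNeu cells. Its levels were low even where it was found, with a median of 4.27 TPM over the Ly6C+GMP cells that held it. Scap, the escort of SREBP, was detected most often in proneu cells, 8 of 22 (36.4%) (95% limits 17.2 and 59.3%). Its share was 20% in Ly6C+GMP cells, and it was found in 3 of 31 (9.68%) preNeu cells and in none of 31 tpMo cells, which allows up to 9.68%. Srebf1 and Srebf2, which encode the SREBP factors, were detected in at most 21.9% and 19% of the cells of a label, and Srebf1 was at 0 TPM in every preNeu cell.

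Of the exporters, Abcg1 (chr17:31057675-31117988, plus strand), which moves cholesterol to lipoproteins, was highest in CMP cells, with a median of 156 TPM, a highest cell of 1617 TPM and a mean of 221 ± 277 TPM. It was found in 85.1% of CMP cells (95% limits 71.7 and 93.8%) and in 26 of 45 (57.8%) Ly6C-GMP cells, and its share among Ly6C+GMP cells was 49.5%. The Ly6C-GMP mean was 36.5 ± 38.6 TPM. The highest Ly6C-GMP cell had 123 TPM, below the CMP median over both runs. That cell is in run H, where it lay above the CMP mean of 97.6 TPM. The difference of mean log2(TPM + 1) between Ly6C-GMP and CMP cells was -2.61 over all cells, -3.41 in run B and -1.07 in run H, and the CMP mean was 284 TPM in run B and 97.6 in run H. CMP cells detected fewer genes than Ly6C-GMP cells. Among cells with 2400 to 3300 genes, a range chosen after seeing the data, Abcg1 was found in 19 of 19 CMP cells, against 40 of all 47. In that range it was found in 12 of 21 tpMo and 10 of 15 preNeu cells. Too few Ly6C-GMP cells had such numbers for a share to be computed. The 6 erythroid and megakaryocyte markers summed to a median of 531 TPM in CMP cells (0 to 9477) and of 1.09 in Ly6C-GMP cells (0 to 4015), with Pf4 at 0 in the latter. The 5 basophil and mast cell markers summed to medians of 165 and 84.3 TPM, with ranges of 0 to 2683 and 0 to 6944 and Prss34 at 0 in CMP cells. Their part in the Abcg1 difference was not tested. The Abcg1 mean of the other labels ran from 19.5 TPM in Ly6C+GMP to 55.7 in tpMo cells, with 26.2 in preNeu and 27.6 in proneu cells. Abca1, the other exporter, was detected in 4 cells altogether.

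Of the fatty acid genes, Acly, Elovl1 and Elovl5 were broadly detected. Acly, which makes cytosolic acetyl-CoA from citrate, was found in 70.2% of CMP to 84.8% of Ly6C+GMP cells and in 74.2% of tpMo and 77.3% of proneu cells, but in 8 of 31 (25.8%) preNeu cells. The preNeu cells that held Acly had high values, with a median of 261 TPM and a highest cell of 740.0, against 79.7 and 191 TPM in proneu cells. The mean of Acly was 79.9 TPM in preNeu and 61.3 in proneu cells, although mean log2(TPM + 1) differed by -2.69. Elovl1, an elongase of very long saturated chains, was detected in 57.4% to 86.7% of the cells of every label and had its highest mean in tpMo cells, 484 ± 531 TPM, and its lowest in proneu cells, 191 ± 247 TPM.

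Elovl5 (chr9:77917364-77984519, plus strand), an elongase of polyunsaturated chains, was highest in proneu cells, and was detected in 90.9% of proneu cells (95% limits 70.8 and 98.9%). The median proneu cell had 179 TPM, the median Ly6C+GMP and Ly6C-GMP cells 103.5 and 101.9, the median CMP cell 0.66, and the preNeu and tpMo medians were 0. The highest cell had 468 TPM among proneu and 484 among Ly6C+GMP cells, so these labels overlapped over their whole range. The difference between them was 1.02 over all cells and 0.43 within run C. Elovl5 was detected in 12 of 31 (38.7%) preNeu and 9 of 31 (29%) tpMo cells, with differences of -4.04 between preNeu and proneu cells and -3.66 between tpMo and Ly6C+GMP cells.

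Fasn (chr11:120805846-120824547, minus strand), the multienzyme that builds palmitate, was detected in 15 of 47 (31.9%) CMP, 21 of 45 (46.7%) Ly6C-GMP, 34.3% of Ly6C+GMP and 5 of 22 (22.7%) proneu cells. The highest cells of these labels had 207 to 391 TPM. No preNeu and no tpMo cell reached 1 TPM, with highest values of 0.99 and 0.27, and a count of 0 of 31 cells allows a share of up to 9.68% in each. Among cells with a like number of genes, 2400 to 3300, a range chosen after seeing the data, Fasn was detected in 6 of 19 CMP cells, 0 of 15 preNeu cells and 0 of 21 tpMo cells. CMP cells are in runs B and H and the preNeu and tpMo cells in run C, so here the run cannot be told apart from the label. Acaca, the carboxylase that supplies malonyl-CoA to Fasn, was detected in 8.51% to 27.3% of CMP, GMP and proneu cells and in 1 cell each of preNeu and tpMo.

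Scd2 (chr19:44293674-44306864, plus strand), a stearoyl-CoA desaturase, was detected in 62.2% of Ly6C-GMP cells (95% limits 46.5 and 76.2%), 12 of 22 (54.5%) proneu, 41.9% of Ly6C+GMP and 13 of 47 (27.7%) CMP cells. It was detected in 1 of 31 preNeu and 3 of 31 tpMo cells. Scd1, its neighbour on chromosome 19, was listed at 0 in every cell, while Scd2 was detected in 35.9% of all cells. The authors' tool divides reads that match several genes by estimate, and how far this affected the split between the Scd genes was not tested. Elovl6 was detected in 0 to 14.9% of the cells of a label. Fads1 and Fads2, the desaturases of polyunsaturated chains, were not detected in any proneu, preNeu or tpMo cell. Fads1 was found in 11.4% of Ly6C+GMP cells, 7 of 47 CMP and 4 of 45 Ly6C-GMP cells, and Fads2 in 3 of 47 CMP and 5 of 45 Ly6C-GMP cells only.

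Label pairs were compared by the difference of mean log2(TPM + 1) over genes whose mean reached 1 TPM in either label, and a gene was counted as higher or lower from 1 log2 unit. This scale follows detection closely and understates the change of low genes. Comparisons that share a label share its cells.

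**Figure D3:**
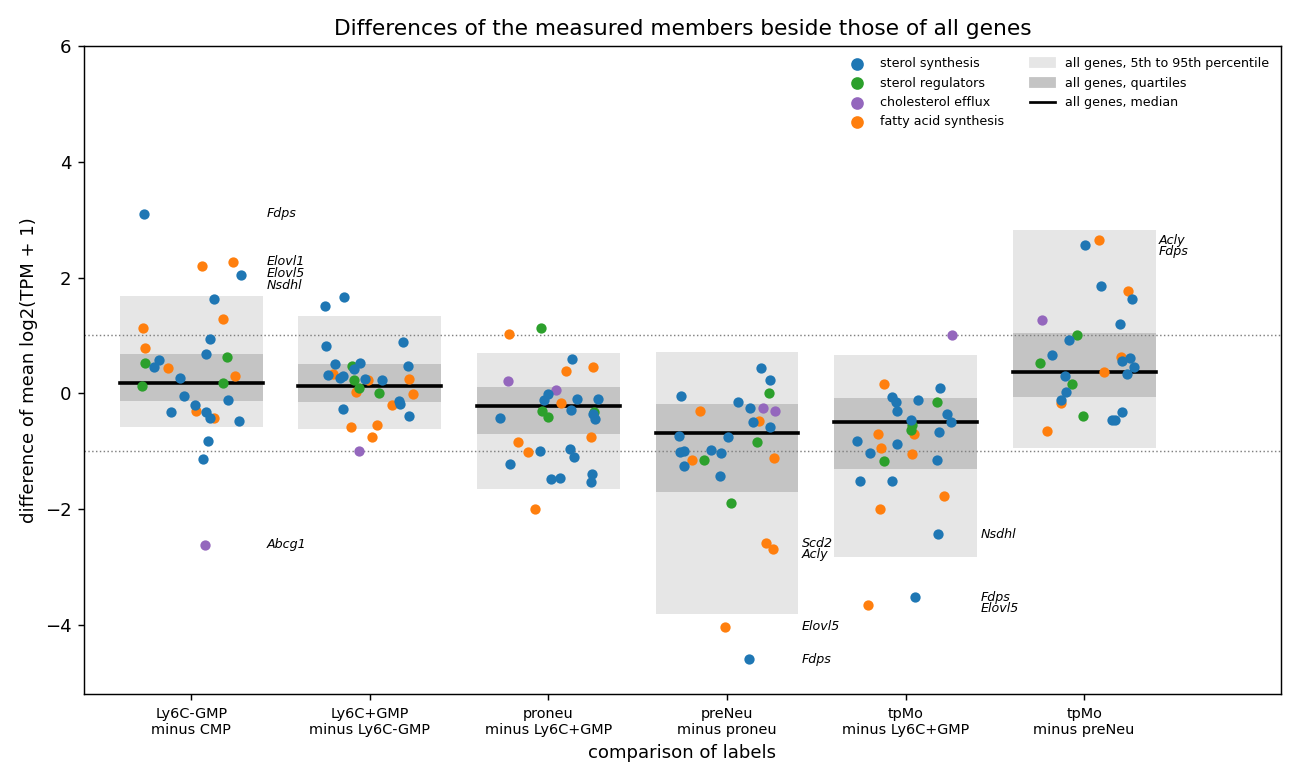
Differences of mean log2(TPM + 1) of the members that passed the filter (points, coloured by role) in the 6 comparisons, over the median, quartiles and 5th to 95th percentiles of all genes compared (line and grey bands), with dotted lines at 1 log2 unit either way. Fdps lies outside the grey bands in 4 of the comparisons, and most other members lie within them.

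From CMP to Ly6C-GMP cells, 7 of the 31 members measured were higher, 2 lower and 22 within 1 log2 unit. Of all 12582 genes compared, 15.6% were higher and 1.29% lower. The higher members were the sterol enzymes Fdps (3.10), Nsdhl (2.04) and Acat2 (1.63) and the fatty acid enzymes Elovl1 (2.27), Elovl5 (2.20), Scd2 (1.28) and Fasn (1.13), and all 7 differences were positive in both runs B and H, with Fasn at 0.77 in B. The lower ones were Abcg1 and Cyp51 (-1.13). The median difference was -0.05 over the 17 sterol enzymes and 0.78 over the 9 fatty acid genes measured, beside 0.19 over all genes. Within runs the sterol median was 0.54 in B and -0.22 in H, and the fatty acid median 0.75 and 1.11. As the log2 ratio of mean TPM, which weights cells with high values, 4 members were higher and 10 lower, and the fatty acid median was 0.16. The median over all genes was then -0.20, and the share of all genes past 1 log2 unit was not computed on that scale.

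Between Ly6C-GMP and Ly6C+GMP cells 2 of 31 members were higher in Ly6C+GMP cells, 1 was lower and 28 stayed within 1 log2 unit. Of all 12399 genes, 9.87% were higher and 1.35% lower, so the members' shares are near those of all genes. Higher were Fdps (1.66) and Ebp (1.5), and lower was Abcg1 (-1.0). The sterol median was 0.32 and the fatty acid median -0.02, beside 0.12 over all genes. With the 10 Ly6C+GMP cells of run C alone, 6 members were higher and 3 lower. The median over all genes was then 0.07, and the share of all genes past 1 log2 unit was not computed for that choice.

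In proneu cells, 2 of 31 members were higher than in Ly6C+GMP cells, 8 lower and 21 within 1 log2 unit, and 2.2% of 12026 genes were higher and 15.9% lower. The higher members were Scap (1.12) and Elovl5 (1.02). The lower ones were Elovl1 (-2.0), Ebp (-1.54), Fdps (-1.48), Acat2 (-1.46), Msmo1 (-1.40), Nsdhl (-1.22), Mvd (-1.10) and Acly (-1.01). Within run C, Elovl1 (-2.84), Mvd (-2.15), Ebp (-2.06), Msmo1 (-1.33), Fdps (-1.25) and Acly (-1.19) remained lower by 1 log2 unit or more and Scap (1.45) higher, while Acat2 was at -0.55. There Nsdhl turned to 0.66, and Elovl5 stayed higher by less than 1 log2 unit. The sterol median was -0.45, and -0.58 in run C. The fatty acid median was -0.46 over all cells and 0.33 in run C, which holds 10 of the Ly6C+GMP cells. The medians over all genes were -0.23 and -0.27.

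From proneu to preNeu cells no member was higher, 12 of 29 were lower and 17 were within 1 log2 unit. This is the comparison with the widest change overall: 39.8% of 10991 genes were lower and 3.58% higher, so the members' share is near that of all genes. Lower were Fdps (-4.60), Elovl5 (-4.04), Acly (-2.69), Scd2 (-2.59), Scap (-1.90), Dhcr7 (-1.42), Nsdhl (-1.25), Acaca (-1.15), Insig1 (-1.15), Fasn (-1.13), Acat2 (-1.03) and Idi1 (-1.01). Elovl1 (-0.47) was closer between the labels, and Ebp (-0.99) lay just short of 1 log2 unit. The sterol median was -0.75 and the fatty acid median -1.15, beside -0.68 over all genes.

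In tpMo cells, 1 of 30 members was higher than in Ly6C+GMP cells, 11 were lower and 18 within 1 log2 unit, with 3.19% of 12057 genes higher and 32.9% lower. The higher one was Abcg1 (1.01, and 0.91 within run C). The lower ones were Elovl5 (-3.66), Fdps (-3.52), Nsdhl (-2.44), Fasn (-2.0), Scd2 (-1.77), Dhcr7 (-1.51), Msmo1 (-1.51), Scap (-1.17), Hmgcs1 (-1.16), Acly (-1.06) and Sqle (-1.03). As the ratio of mean TPM, Acly was instead higher in tpMo cells, by 0.33. The sterol median was -0.67 and the fatty acid median -1.0, beside -0.5 over all genes. Within run C the medians were -0.64 and -1.36, beside -0.59.

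Set against preNeu cells, 8 of 27 members were higher in tpMo cells, none was lower and 19 were within 1 log2 unit, while 26.3% of 10826 genes were higher and 4.53% lower. The higher members were Acly (2.65), Fdps (2.56), Ebp (1.86), Elovl1 (1.77), Acat2 (1.63), Abcg1 (1.27), Mvd (1.19) and Insig1 (1.01). All cells of both labels are in run C. Among cells with 2400 to 3300 genes (21 tpMo and 15 preNeu), Abcg1 and Elovl1 no longer differed in this direction, at -0.43 and -0.18, and 5 members were higher and 1 lower. As the ratio of mean TPM, 13 members were higher and 5 lower. The median over all genes was 0.26 in the cells with 2400 to 3300 genes and 0.80 as the ratio. Shares of all genes past 1 log2 unit were not computed for either. On the usual scale and over all cells, the sterol median was 0.51 and the fatty acid median 0.5, beside 0.36 over all genes.

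Per cell, the median number of members detected was 4 in preNeu, 7 in tpMo and 8 in CMP cells, and 9 in proneu, 10 in Ly6C-GMP and 11 in Ly6C+GMP cells, with a range of 1 to 20 over all cells. Per 1000 genes detected, the medians were 1.66, 2.12, 2.29, 2.27, 2.27 and 2.23 in the same order, so the count followed the number of genes closely in all labels but preNeu, where it was lowest. The TPM of the 17 sterol enzymes summed to a median of 859 in Ly6C+GMP cells (118 to 2332) and of 182 in preNeu cells (0.71 to 1109). The 10 fatty acid genes summed to medians of 572 and 224. Over the same cells the mean log2(TPM + 1) of 22 mitosis genes had a median of 5.0 in Ly6C+GMP and 5.11 in preNeu cells, and that of 22 DNA replication genes 6.6 and 2.4.

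**Figure D4:**
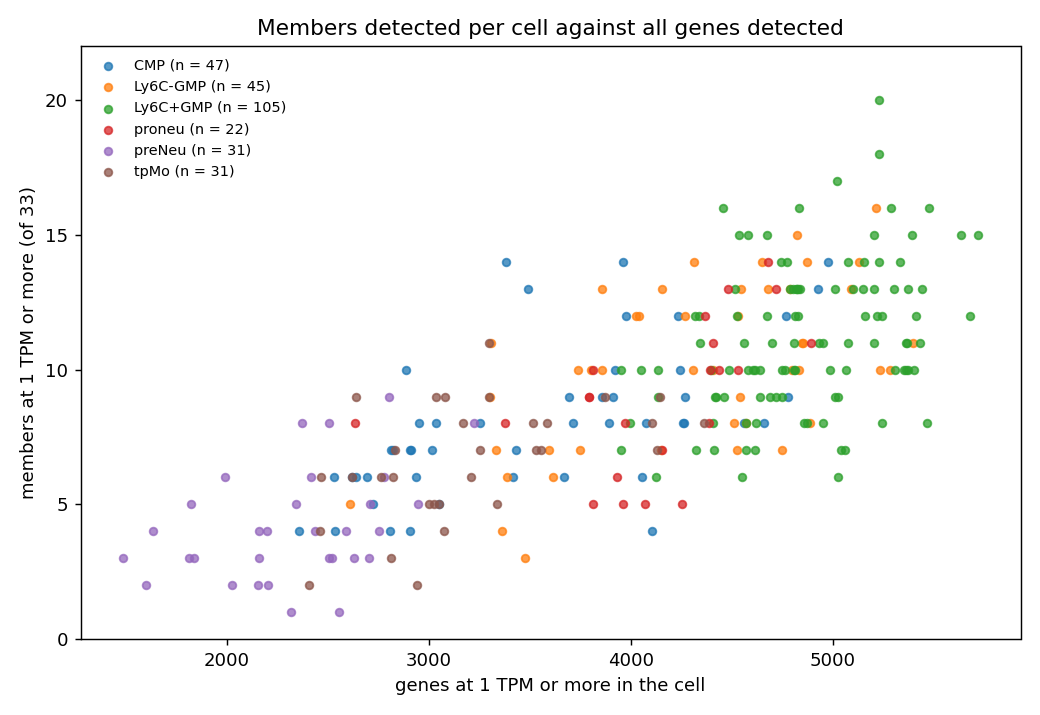
Number of members at 1 TPM or more (of 33) against the number of genes at 1 TPM or more, 1 point per cell, coloured by label. Both numbers rise together across labels, with preNeu cells at the lower left and Ly6C+GMP cells at the upper right.

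Correlations between members from cell to cell were computed within a label and run. In the 95 Ly6C+GMP cells of run A, the 21 pairs among members detected in at least 50% of cells had Spearman rho between -0.21 and 0.25, with a median of 0.037. In the other labels computed, CMP and Ly6C-GMP in run B and proneu and tpMo in run C, the pairs ran from -0.51 to 0.42, with medians between -0.048 and 0.034. In the run A cells the mean log2(TPM + 1) of the sterol enzymes had a rho of 0.18 with that of the fatty acid genes, 0.063 with that of mitosis genes, 0.22 with that of DNA replication genes and 0.24 with the number of genes detected. In the other labels the sterol enzymes had a rho with the fatty acid genes of 0.45 in CMP, 0.28 in proneu, 0.21 in Ly6C-GMP, 0.091 in tpMo and 0.078 in preNeu cells. Their rho with the DNA replication genes was 0.45 in proneu, 0.44 in Ly6C-GMP, 0.42 in CMP, 0.36 in tpMo and 0.14 in preNeu cells. With the number of genes detected, rho was 0.56 in 31 CMP cells and 0.64 in 30 Ly6C-GMP cells of run B, and in run C 0.55 in 21 proneu, 0.48 in 31 tpMo and 0.26 in 31 preNeu cells. Each cell is its own sample, its read depth is unknown, and the values are descriptions. The 8 genes outside the list whose levels followed the sterol enzymes most closely in the run A cells, of 4172 compared, were Cand1, Emd, Pitrm1, Csgalnact2, Chmp5, I830127L07Rik, Trappc4 and Fam111a, with rho from 0.36 to 0.31. The 99th percentile over all 4172 genes was 0.27. The 8 lie above it by construction, because they were picked as the highest of these values.

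Other genes of the same pathways, which are not among the 33, were read from lists of 21 sterol genes (20 found) and 25 fatty acid genes. The sterol genes gave 3 higher and 0 lower of 20 from CMP to Ly6C-GMP cells, 4 higher and 0 lower of 20 on to Ly6C+GMP, 1 higher and 6 lower of 20 from there to proneu and 0 higher and 10 lower of 19 on to preNeu cells. They gave 1 higher and 6 lower of 19 from Ly6C+GMP to tpMo and 8 higher and 0 lower of 18 between tpMo and preNeu cells. The fatty acid genes gave, in the same order, 4 higher and 0 lower of 21, 3 higher and 0 lower of 20, 1 higher and 4 lower of 20, 2 higher and 9 lower of 17, 0 higher and 9 lower of 20 and 5 higher and 4 lower of 16. Beside these counts, 15.6% of all genes were higher and 1.29% lower, then 9.87 and 1.35%, and 2.2 and 15.9%. The later comparisons had 3.58 and 39.8%, 3.19 and 32.9%, and 26.3 and 4.53%, in the same order. Soat1, which esterifies cholesterol for storage, differed widely between labels: it was found in 28 of 31 (90.3%) tpMo cells and 90.5% of Ly6C+GMP cells but in 28 of 45 (62.2%) Ly6C-GMP, 14 of 22 (63.6%) proneu, 15 of 31 (48.4%) preNeu and 16 of 47 (34%) CMP cells. Its mean was 229 ± 275 TPM in tpMo and 122 ± 101.4 TPM in Ly6C+GMP cells, against 38.8 ± 73 TPM in proneu cells. The difference between proneu and Ly6C+GMP cells was -2.94, and -2.34 in run C. Npc2, which hands cholesterol out of lysosomes, was detected in all 31 tpMo cells at 522 ± 307 TPM, with a difference of 4.55 from preNeu cells. Acat1, the mitochondrial acetyl-CoA acetyltransferase, was found in 2 of 31 preNeu and 20 of 31 tpMo cells. Slc25a1, the citrate carrier that supplies Acly, was detected in 66.7% of Ly6C+GMP, 2 of 31 (6.45%) preNeu and 3 of 31 (9.68%) tpMo cells.

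Of the other fatty acid genes, 2 of the 17 compared, Dgat1 and Acsl1, were higher in preNeu than in proneu cells and 9 were lower. Dgat1, which attaches the last fatty acid of triglycerides, was detected in 71% of preNeu cells (95% limits 52 and 85.8%) at a mean of 368 ± 519 TPM, against 8 of 22 (36.4%) proneu cells at 100.4 ± 218 TPM and 9 of 31 (29%) tpMo cells at 33.4 ± 85.4 TPM. Dgat2, a second enzyme for that step, had its highest mean in preNeu cells, 146 TPM, followed by 85.9 in proneu, 53.6 in Ly6C+GMP and 20.2 in tpMo cells, and lay at 5.23 and 0.0587 in Ly6C-GMP and CMP cells. Its share was lower in preNeu than in proneu cells, 14 of 31 (45.2%) against 13 of 22 (59.1%). Gpam, Lpin1 and Agpat3, which act earlier in glycerolipid synthesis, were not detected in any preNeu cell. Acsl1, which activates fatty acids with coenzyme A, had its highest mean in preNeu cells, 179 ± 202 TPM. Dgat1 and Acsl1 differed by 2.45 and 1.32 between preNeu and proneu cells, where 3.58% of all genes were higher. In contrast, Hsd17b12 (-3.65), a reductase of the elongation cycle, and Lpcat3 (-3.64), which places polyunsaturated chains in phospholipids, were lower in preNeu cells.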

How the data were processed

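Levels were read from 1 table in which the authors deposited a TPM value per gene symbol and cell. RSEM 1.2.19 and GRCm38 are named in the submitters' processing notes. The aligner was not given in the sources used here, nor were annotation and filters. Column totals ran from 998703 to 1000000 TPM. TPM keeps no read depth, the method has no molecular identifiers, and a very abundant transcript lowers all others in its cell. The kit does not mark strand, so overlapping or antisense genes cannot be separated, and RSEM shares reads of near-identical genes by estimate.

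Groups are the cell type labels, and no cell was left out. Differences were computed with a pseudocount of 1 TPM in Python 3.11.15 with numpy 2.4.6, pandas 2.3.3 and scipy 1.17.1. The ratio of mean TPM was tested on simulated fold changes in the more abundant genes. The difference of mean log2(TPM + 1) was checked only on a small constructed example with known answers. With 1 sample per label no test was made. The 33 members, the gene lists and the comparisons were chosen with earlier results of these data known. Members detected in at least 50% of the cells of a label, or differing by 1 log2 unit and averaging 5 TPM or more in the higher label, were described one by one. Up to 3 genes of each other pathway list per comparison, with the largest difference, could be named, and not all are printed. Of 7 list symbols absent from the table, 5 were matched by a RefSeq synonym. Gene positions are from the GENCODE annotation of GRCm38, counted from 1, and promoters from RefSeq. Doublets were not called. Alternatives were other pseudocounts, no filter, median-ratio scaling over 547 genes, the ratio of mean TPM, renormalising without mitochondrial and the 20 most abundant genes, single runs, leaving out each gene's highest cell, and cells with at least 2000 genes.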

Additional observations from a re-analysis of the deposited data

How the results depend on the processing

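Of 120 recomputed list medians, 109 moved by less than the log2 of 1.5. The other 11 concern these values. For fatty acid genes they were 0.16 for Ly6C-GMP minus CMP as the ratio of mean TPM, 0.33 for proneu minus Ly6C+GMP within run C and 0.21 with only the Ly6C+GMP cells of run C, and -1.75 for tpMo minus Ly6C+GMP as the ratio. The medians over all genes under the same settings were -0.20, -0.27, -0.26 and -0.27. For preNeu minus proneu the fatty acid median was -0.56 with a pseudocount of 10 TPM, -1.91 with 0.1 TPM, -1.77 as the ratio and -1.91 without each gene's highest cell. All genes moved the same way under these 4 settings, to medians of -0.30, -1.12, -0.86 and -0.89. For sterol enzymes they were -1.36 for preNeu minus proneu and 1.22 for tpMo minus preNeu as the ratio, and -1.34 for tpMo minus Ly6C+GMP with a pseudocount of 0.1 TPM. Beside these, the medians over all genes were -0.86, 0.80 and -0.89. In all, 6 signs turned: Nsdhl in proneu minus Ly6C+GMP was 0.66 within run C and 0.60 with the Ly6C+GMP cells of run C, Acly as the ratio was 0.38 for preNeu minus proneu and 0.33 for tpMo minus Ly6C+GMP, and in cells with 2400 to 3300 genes, a range chosen after seeing the data, Abcg1 was -0.43 and Elovl1 -0.18 for tpMo minus preNeu. The causes were not tested.

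Of the counts of members past 1 log2 unit, 88 of 120 stayed within 1.5 times. The share of all genes past 1 log2 unit was not computed under the alternatives, so these counts have only the medians over all genes beside them. With a pseudocount of 10 TPM the counts higher and lower were 4 and 1 for Ly6C-GMP minus CMP, 1 and 0 for Ly6C+GMP minus Ly6C-GMP, 0 and 1 for proneu minus Ly6C+GMP, and for tpMo minus Ly6C+GMP 0 and 3. That pseudocount left 4 members lower in preNeu than in proneu cells and 4 higher in tpMo than in preNeu cells. In the order given here, the medians over all genes with it were 0.07, 0.04, -0.09, -0.19, -0.30 and 0.18. With 0.1 TPM the counts were 11 higher for Ly6C-GMP minus CMP, 4 higher and 2 lower for Ly6C+GMP minus Ly6C-GMP, 18 lower for tpMo minus Ly6C+GMP and 1 lower for tpMo minus preNeu. The medians over all genes were then 0.33, 0.22, -0.89 and 0.57. As the ratio of mean TPM, 2 members were higher in preNeu than in proneu and 3 in tpMo than in Ly6C+GMP cells, beside -0.86 and -0.27 over all genes. Within run H, on the usual scale, 4 were lower in Ly6C-GMP than in CMP cells, beside a median of 0.20 over all genes. Of 542 recomputed member differences past 1 log2 unit, 439 stayed past it, 97 kept their sign below it and 6 turned. Of 396 recomputed shares of cells, 27 moved beyond their interval. Depth is unknown, and a zero cannot be told from a missed transcript.

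No paired analysis was possible because every sample is 1 cell, no test was made, and the replicate numbers only name cells.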
